A study of Mus musculus with 12 samples.

Results

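Mitochondrial protein import genes were followed in mouse gastrocnemius, a mixed and mostly fast-twitch calf muscle, across genotype and age. The members are the genes whose array symbol begins with Timm or Tomm followed by a number, together with Pam16, Dnlz, Grpel1, Grpel2, Pmpca and Pmpcb, on probe sets that name a single gene. This gave 29 genes of the 18194 that could be tested, each read on its probe set with the highest mean signal. Of these, 27 had a mean log2 signal of at least 6.22, the median of all probe sets, and Timm8a2 and Tomm20l did not.

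Total RNA from gastrocnemius was hybridised to 12 Affymetrix arrays, 3 in each of 4 groups. The groups were wild-type and knock-out mice of 10 weeks (young), and wild-type and knock-out mice of 24 months (old). All had a mixed C57Bl/6N/6J/129 background, and in the knock-out groups PGC-1alpha, a transcriptional coactivator of mitochondrial genes, was removed in muscle with a Cre recombinase driven by myogenin. Myogenin is active in the muscle lineage, so other cells of the tissue keep the gene. Whether the 3 arrays of a group came from separate animals is not stated in the labels, so p-values measure the spread between these arrays, which may be technical. RNA of Ppargc1a, the targeted gene, was not lower in the knock-out arrays: on its 5 probe sets the log2 difference from wild-type lay between 0.42 and 0.58 in young and between 0.29 and 0.49 in old muscle. The deposited files do not place these probe sets relative to the deleted part of the gene, so this level does not test the labels, and the word knock-out here follows the label alone.

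Nearly all mitochondrial proteins are made in the cytosol and are carried across the mitochondrial membranes by translocases. The TOM complex of the outer membrane receives them, small TIM chaperones escort hydrophobic ones across the space between the membranes, and the TIM22 and TIM23 complexes of the inner membrane insert or transport them. A motor on the matrix side, built around the chaperone Hspa9, pulls proteins through TIM23, and a processing peptidase then removes their targeting sequence. Muscle fibres depend on this route for the enzymes of oxidative metabolism, which PGC-1alpha is known to induce.

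Genes listed as fast-fibre were strongly expressed in every group, with a mean log2 signal of 15.58 to 15.63 over 11 genes. This is close to 15.95, the highest log2 signal in the data, so the near-equal means cannot show that fibre type was constant. The mean of 7 slow-fibre genes at 10 weeks was 12.78 for wild-type and 13.14 for knock-out. At 24 months it was 13.10 and 13.56. The arrays of the 2 genotypes overlapped in this mean at each age. Old knock-out array 1 stood apart: the median of the 29 import genes, set against the young wild-type mean, was -0.21 in it and -0.02 in both other arrays of its group. The same array had an adipocyte marker mean of 10.63, the highest of all 12 arrays. The main counts, the calls and the paralog tests that use it are also given without it. In bulk tissue, fewer cells of a type and less RNA per cell cannot be told apart.

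Averaged over both ages, 4 import genes were lower in knock-out muscle and none was higher (limma, Benjamini-Hochberg over all genes, adjusted p under 0.05). They were Timm44, Timm17a, Timm10 and Pmpcb, which belong to the motor, the TIM23 channel, the small chaperones and the processing peptidase, respectively. The change in level ran from -17.5% for Timm17a to -20.4% for Timm44. The 4 genes are 13.8% of the members, while 2.51% of all genes were called lower and 1.71% higher in this comparison. Among the genes with a mean of at least the array median, fitted alone, the same 4 genes were called lower out of 27 members (14.8%), against 4.48% of those genes lower and 4.38% higher. The median difference of the 29 members was -0.07 on the log2 scale against -0.01 over all genes, and 22 of the 29 members had a negative difference. The count was 4 without old knock-out array 1, 2 without young wild-type array 2 or old wild-type array 2, and 1, Timm44, without young wild-type array 3 or young knock-out array 2. The receptors of the outer membrane had small differences of either sign, described below.

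**Figure D1:**
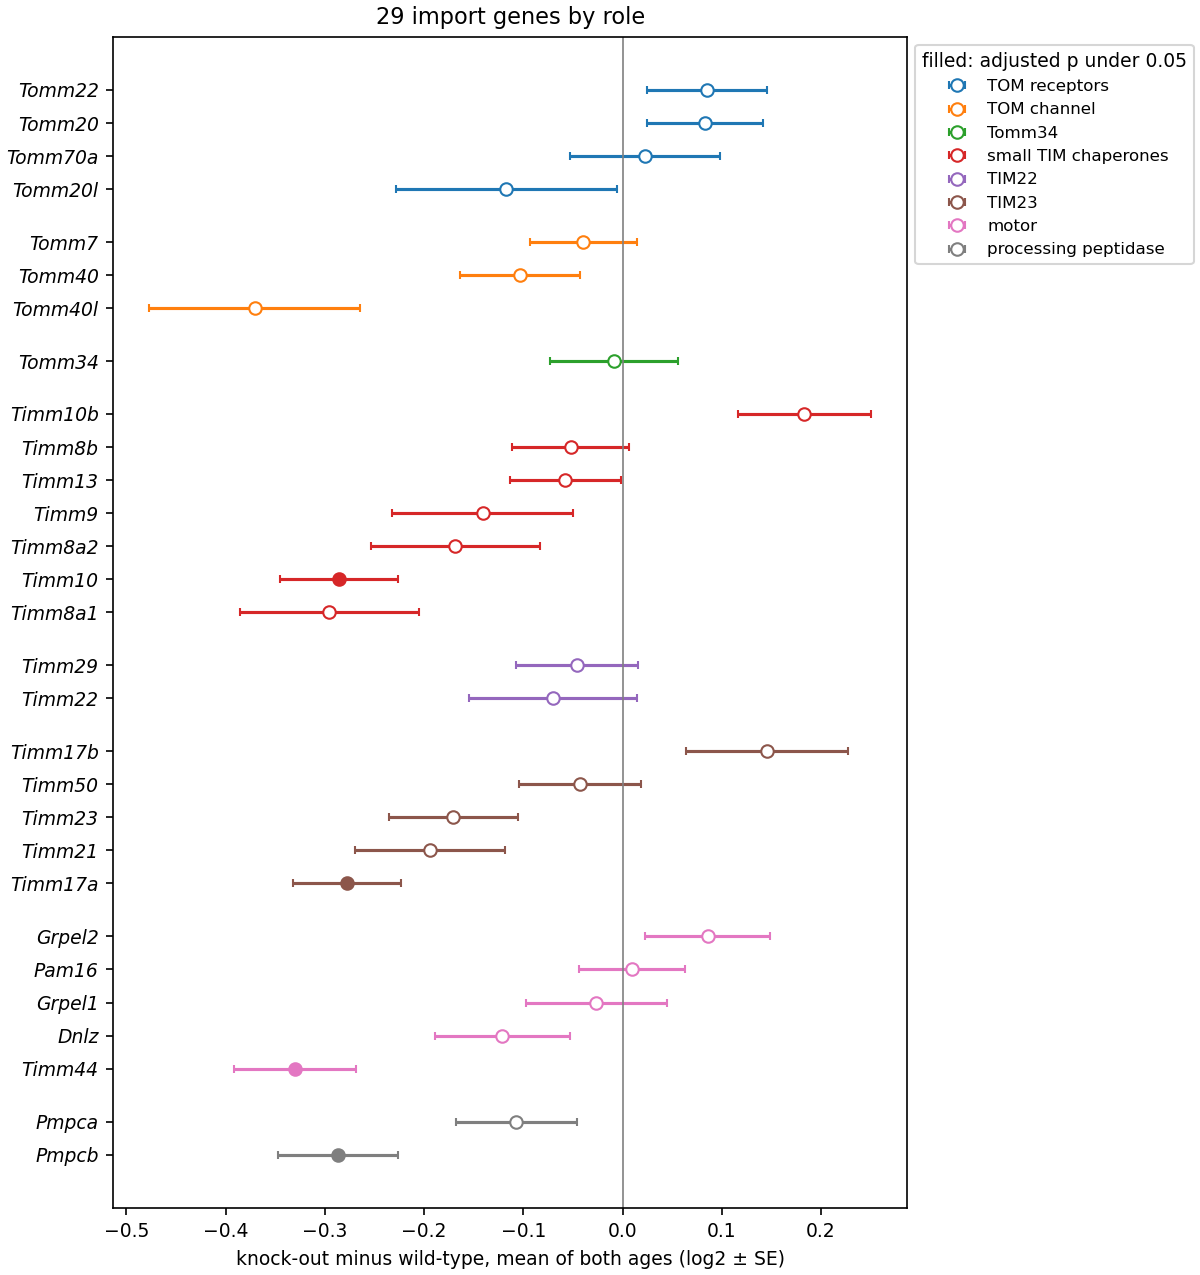
Log2 difference between knock-out and wild-type muscle, averaged over both ages (horizontal axis, with its standard error), for each of the 29 import genes, grouped and coloured by role; filled points have an adjusted p under 0.05. The filled points are Timm10, Timm17a, Timm44 and Pmpcb, between -0.33 and -0.28, and the points furthest to the right are Timm10b at 0.18 and Timm17b at 0.15.

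The promoters of these 4 genes are shown because they are the members with a genotype call. Each line gives 120 bases before and 30 bases after the annotated transcription start, 5′ to 3′ on the gene's own strand, from RefSeq on mouse build GRCm38.p6. Timm44 lies at chr8:4275876-4276025 on the minus strand, Timm17a at chr1:135313708-135313857 on the minus strand, Timm10 at chr2:84826901-84827050 on the plus strand and Pmpcb at chr5:21737040-21737189 on the plus strand. Capitals mark the letters CCGGAAG, read on either strand, which the ETS-family factor GABP can bind.
Timm44: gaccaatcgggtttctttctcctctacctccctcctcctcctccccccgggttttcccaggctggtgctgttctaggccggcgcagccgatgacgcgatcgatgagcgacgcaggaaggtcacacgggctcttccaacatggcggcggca
Timm17a: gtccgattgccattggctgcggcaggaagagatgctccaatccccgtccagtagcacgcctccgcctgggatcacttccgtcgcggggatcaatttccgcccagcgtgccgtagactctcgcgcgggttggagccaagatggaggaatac
Timm10: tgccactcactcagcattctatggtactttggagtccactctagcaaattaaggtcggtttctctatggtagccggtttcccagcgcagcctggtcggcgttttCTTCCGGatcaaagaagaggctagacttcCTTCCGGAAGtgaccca
Pmpcb: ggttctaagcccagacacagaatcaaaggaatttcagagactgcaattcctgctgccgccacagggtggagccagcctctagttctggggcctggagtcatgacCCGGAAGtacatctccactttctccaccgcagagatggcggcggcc

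Timm10 held 3 matches to the GABP letters, 2 of which overlap on opposite strands, Pmpcb held 1, and the Timm44 and Timm17a windows held none. Over the longer windows of the table, from 250 bases before to 50 after the start, 25 of the 29 members matched and had 27 promoters. The GABP letters occurred in 14 of the 27 (51.9%), against 13.0% of the 18010 promoters of genes on the array and 8.86% of all 32851 promoters. The share was 47.1% in the 17 promoters of the import partners described below. The genes with a match included Timm10, Pmpcb and Grpel1, which had a call in at least 1 comparison, and Tomm22, Tomm70a, Timm8b and Timm23, which had none. The core letters for NRF-1, GCGCANGCG on either strand, occurred in 4 of the 27 (14.8%), against 9.89% of array-gene promoters and 29.4% of those of the partners. The letters TNAAGGTCA of the estrogen-related receptors, which PGC-1alpha coactivates, occurred in 1 of the 27, that of Timm8b (3.7% against 1.08%). The median GC content was 58.7% in the members' windows and 58.3% in those of all array genes. The median number of CpG dinucleotides, which the GABP letters contain, was 20 in the members' windows, 24 in the partners' and 16 in those of all array genes. A match is a description of letters in a window, not of a bound site.

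Timm44 anchors the motor chaperone Hspa9 to the exit of the TIM23 channel. Its log2 signal was 11.43, 11.58 and 11.72 in wild-type and 11.16, 11.26 and 11.21 in knock-out arrays of young muscle. In old muscle it was 11.16, 11.15 and 11.13 in wild-type and 10.79, 10.86 and 10.92 in knock-out arrays. At each age every knock-out array lay below every wild-type array, and the old wild-type arrays lay near the young knock-out ones. The averaged difference was -0.33 ± 0.06 (SE), or -20.4%, with an adjusted p of 0.0136. Its other 2 probe sets gave -0.40 and -0.25, and the latter did not pass the test (adjusted p = 0.0689).

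Timm17a is a subunit of the TIM23 channel. It had log2 signals of 12.42, 12.47 and 12.52 in wild-type and 12.20, 12.15 and 12.16 in knock-out arrays of young muscle. The old wild-type arrays gave 12.48, 12.38 and 12.42 and the old knock-out arrays 12.07, 12.19 and 12.25. The 6 wild-type arrays all lay above the 6 knock-out arrays. The averaged difference was -0.28 ± 0.05 (-17.5%, adjusted p = 0.017), and the call was lost without young wild-type array 3 (adjusted p = 0.0547) or young knock-out array 2 (0.0517).

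Timm10 forms, with Timm9, the soluble chaperone that escorts carrier proteins through the intermembrane space. The Timm10 log2 signal was 11.46, 11.54 and 11.48 in wild-type and 11.17, 11.15 and 11.15 in knock-out arrays of young muscle. In old muscle it was 11.34, 11.47 and 11.33 in wild-type and 11.16, 11.01 and 11.27 in knock-out arrays. All 6 knock-out arrays lay below all 6 wild-type arrays, with the old knock-out arrays more spread than the young ones. The averaged difference was -0.29 ± 0.06 (adjusted p = 0.0223). The call was lost when any of young wild-type array 2, young wild-type array 3, young knock-out array 2 or old wild-type array 2 was left out, with adjusted p between 0.0556 and 0.0624.

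Pmpcb is the catalytic subunit of the mitochondrial processing peptidase. Its log2 signal was 11.82, 11.75 and 11.73 in wild-type and 11.55, 11.48 and 11.63 in knock-out arrays of young muscle. In old muscle it was 11.99, 12.13 and 12.08 in wild-type and 11.57, 11.77 and 11.78 in knock-out arrays. The groups did not overlap at either age, while 2 old knock-out arrays reached the level of young wild-type. The averaged difference was -0.29 ± 0.06 (adjusted p = 0.0238). This call was lost without young wild-type array 2 or 3, young knock-out array 2, or old wild-type array 2 or 3 (adjusted p between 0.0549 and 0.0715), and its other probe set gave -0.19 (adjusted p = 0.158). Pmpca, the subunit that binds the targeting sequence, had a difference of -0.11 ± 0.06 (adjusted p = 0.302).

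**Figure D2:**
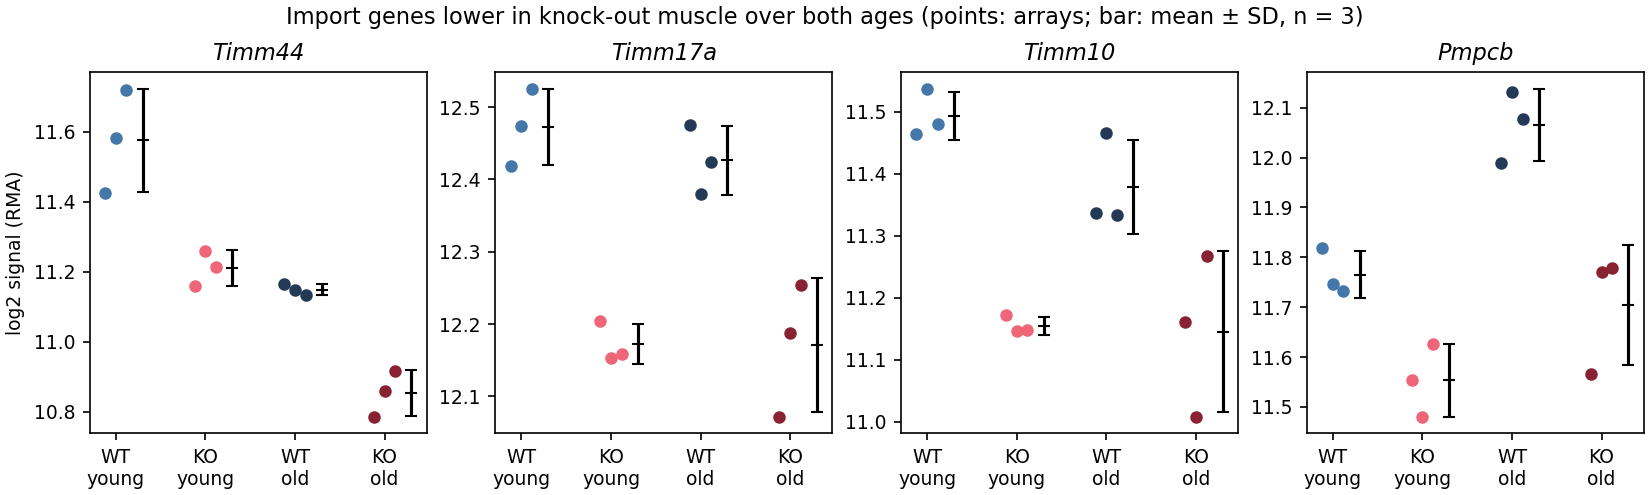
Log2 signal of Timm44, Timm17a, Timm10 and Pmpcb in each of the 12 arrays (vertical axes, which differ between panels and do not start at 0), by group (WT, wild-type; KO, knock-out), with the mean and SD of 3 arrays beside the points. In every panel the knock-out arrays lie below the wild-type arrays of the same age.

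In the outer membrane, the receptors Tomm20 and Tomm22, which recognise targeting sequences, and Tomm70a, which receives carrier precursors, had no call. The log2 signal of Tomm20 was 13.72, 13.71 and 13.83 in young arrays of wild-type and 13.79, 13.92 and 13.83 in those of knock-out. Old muscle gave 14.00, 13.88 and 13.90 for wild-type and 14.07, 14.04 and 13.88 for knock-out. The genotype groups overlapped at both ages. The 95% interval of the averaged difference was -0.04 to 0.21 for Tomm20, -0.05 to 0.22 for Tomm22 and -0.14 to 0.19 for Tomm70a, so a fall of the size seen for Timm44 lies outside all 3. Tomm70a's other 4 probe sets gave averaged differences between -0.19 and 0.25, so its value depends on the probe set. Tomm20l, a relative of Tomm20, had a mean signal below the array median.

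Of the channel subunits, Tomm40l, a relative of the pore protein Tomm40, had the most negative difference of all members. Its log2 signal was 10.25, 10.46 and 10.34 in wild-type and 9.94, 10.16 and 10.18 in knock-out arrays of young muscle. In old muscle it was 10.00, 10.29 and 10.13 in wild-type and 9.32, 9.67 and 9.99 in knock-out arrays. The groups did not overlap at either age, but the old knock-out arrays spread widely, with an SD of 0.34, and array 1 was the lowest. The averaged difference of -0.37 ± 0.11 did not pass the test (adjusted p = 0.0698), and without array 1 it was -0.29 ± 0.09 (adjusted p = 0.0802). A further probe set of Tomm40l gave -0.47. Tomm40 itself had -0.10 ± 0.06 (adjusted p = 0.315). Tomm7, a small subunit that regulates TOM assembly, had log2 signals of 11.40, 11.45 and 11.41 in wild-type and 11.38, 11.38 and 11.25 in knock-out arrays of young muscle. The old arrays gave 11.39, 11.34 and 11.45 for wild-type and 11.32, 11.43 and 11.45 for knock-out. Its old groups overlapped and its young groups did not, and its averaged difference was -0.04 ± 0.05.

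Tomm34 is a cytosolic cochaperone of precursors rather than a subunit of the complex. Its log2 signal was 9.70, 9.55 and 9.56 in young arrays of wild-type and 9.56, 9.51 and 9.78 in those of knock-out. Old muscle gave 9.56, 9.62 and 9.54 for wild-type and 9.46, 9.62 and 9.54 for knock-out. All 4 groups overlapped, with an averaged difference of -0.01 ± 0.06.

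Among the other small chaperones, Timm8a1, which partners with Timm13, had an averaged difference of -0.30 ± 0.09 and lay lower in knock-out muscle without overlap at both ages, but did not pass the test (adjusted p = 0.0847). Timm8b, a relative of Timm8a1, had log2 signals of 12.69, 12.69 and 12.66 in wild-type and 12.68, 12.59 and 12.46 in knock-out arrays of young muscle. The old arrays gave 12.66, 12.59 and 12.55 for wild-type and 12.50, 12.63 and 12.67 for knock-out. Its groups overlapped at both ages, and its averaged difference was -0.05 ± 0.06. Timm9 had -0.14 ± 0.09, Timm13 had -0.06 ± 0.06 and Timm8a2, which was below the array median, had -0.17 ± 0.09, all without a call. Timm10b, a small TIM protein of the TIM22 complex, had the most positive value of the members at 0.18 ± 0.07 (adjusted p = 0.134), which was 0.13 ± 0.05 without old knock-out array 1.

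In the TIM22 complex, which inserts carriers into the inner membrane, Timm22 had an averaged difference of -0.07 ± 0.08 and its partner Timm29 -0.05 ± 0.06. Timm22 had log2 signals of 10.28, 10.29 and 10.35 in young arrays of wild-type and 10.25, 10.41 and 10.31 in those of knock-out. Old muscle gave 10.32, 10.30 and 10.30 for wild-type and 9.82, 10.32 and 10.31 for knock-out. Timm29 had 11.29, 11.34 and 11.28 in wild-type and 11.34, 11.37 and 11.34 in knock-out arrays of young muscle. The old arrays gave 11.28, 11.26 and 11.31 for wild-type and 10.96, 11.18 and 11.29 for knock-out. For both genes the lowest value of the 12 was that of old knock-out array 1, and without it the averaged difference of Timm22 was 0.01 ± 0.05.

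In TIM23, the log2 signal of the pore protein Timm23 was 13.58, 13.67 and 13.62 in young arrays of wild-type and 13.55, 13.41 and 13.33 in those of knock-out. Old muscle gave 13.46, 13.47 and 13.44 for wild-type and 13.15, 13.32 and 13.45 for knock-out. The young groups did not overlap and the old ones did, and the averaged difference of -0.17 ± 0.06 did not pass the test (adjusted p = 0.147). Timm21, which links TIM23 to the respiratory chain, had -0.19 ± 0.08 (adjusted p = 0.155), and Timm50, the presequence receptor of TIM23, had -0.04 ± 0.06. Another probe set of Timm50 gave -0.23 ± 0.08, and a dim one, with a mean below the array median, gave -0.13 ± 0.11. The value of Timm50 thus depends on the probe set. Timm17b, the paralog of Timm17a, had 0.15 ± 0.08 (adjusted p = 0.297).

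Of the motor's other parts, Pam16 regulates the J-proteins that stimulate Hspa9. Its log2 signal was 12.72, 12.76 and 12.77 in wild-type and 12.77, 12.80 and 12.62 in knock-out arrays of young muscle. The old arrays gave 12.74, 12.67 and 12.71 for wild-type and 12.76, 12.73 and 12.75 for knock-out. The groups overlapped, with an averaged difference of 0.01 ± 0.05. Dnlz, which keeps Hspa9 soluble, had -0.12 ± 0.07 (adjusted p = 0.296). The nucleotide exchange factors Grpel1 and Grpel2 had averaged differences of -0.03 ± 0.07 and 0.09 ± 0.06.

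At each age alone, no import gene passed the test. In young muscle, limma called 0 of the 29 members (5 at an unadjusted p under 0.05), where 0.154% of all genes were called lower and 0.0385% higher. In old muscle it called 0 (7 at an unadjusted p under 0.05), where 0.852% of all genes were called lower and 0.473% higher. The unadjusted threshold was passed by 2049 of all 18194 genes in young and by 3505 in old muscle. The median difference of the members was -0.10 in young and -0.08 in old muscle, and without old knock-out array 1 the old median was -0.01 with 0 called. Without old knock-out array 3, 2 members were called in old muscle, Pmpcb and Tomm40l, both lower. The old count over all genes also moved widely with single arrays left out, as given in the closing section, so these calls are not read as particular to the members. In young muscle, 14 members lay lower in knock-out arrays with no overlap between the groups, among them Tomm40, Timm23, Timm21, Timm13 and Grpel1, and 2 lay higher, Timm17b and Timm29. Over all genes, 10.1% lay lower and 10.7% higher in this way. In old muscle 6 members lay lower without overlap, against 13.2% of all genes, and only Timm10b lay higher, against 10.6%. Without old knock-out array 1 these counts were 7 lower, against 18.8% of all genes, and 2 higher, Timm10b and Tomm22, against 17.4%. The members that lay lower at both ages were Pmpcb, Timm44, Timm10, Timm8a1, Timm17a and Tomm40l, 20.7% of the 29, against 3.52% of all genes. The same 6 did so without old knock-out array 1, against 4.39% of all genes. These shares over all genes include genes with a mean below the array median, while 27 of the 29 members were not below it. The share among the brighter genes alone was not computed for non-overlap.

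The genotype difference at old age minus that at young age was called for no member and for no gene of the array by limma (0% lower and 0% higher). At an unadjusted p under 0.05 there were 992 genes, of which 1, Grpel1, was a member. The difference in the number of non-overlapping members between the ages was not tested.

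**Figure D3:**
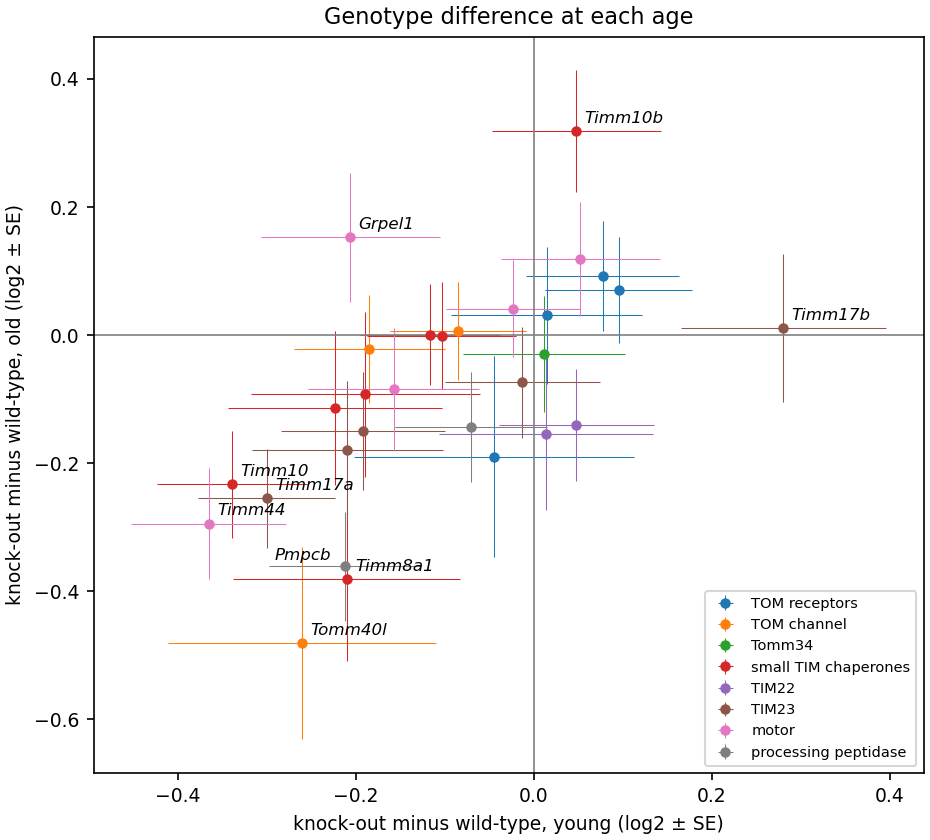
Log2 difference between knock-out and wild-type in young muscle (horizontal axis) against that in old muscle (vertical axis), each with its standard error, for the 29 import genes coloured by role. Timm44, Timm17a, Timm10, Pmpcb, Timm8a1 and Tomm40l lie at the lower left, Timm10b and Timm17b lie above 0 on both axes, and Grpel1 is at -0.21 in young and 0.15 in old muscle.

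Other measures of the arrays differed between genotypes as well. In old muscle all 7 adipocyte genes had a positive difference (median 1.01, none called) and their mean was 10.63, 10.02 and 8.12 in knock-out arrays against 8.08 to 8.70 in wild-type ones. In young muscle all 7 had a negative difference (median -0.33, none called). The mean log2 signal of 12 macrophage genes was 8.02, 8.15 and 8.25 on the old knock-out arrays, against 7.15 to 7.90 for wild-type of that age, with 11 of the 12 genes at a positive difference and 1 called. In young muscle 10 of the 12 had a positive difference (median 0.41, none called). Averaged over both ages 11 did, with 2 called higher. The mean log2 signal of 8 lymphocyte genes, 5 of which had a mean below the array median, was 5.75 to 5.84 in young knock-out arrays. Young wild-type arrays gave 6.98, 5.96 and 5.88, so array 1 made most of the gap. All 8 genes had a negative difference and none was called. Also in young muscle, all 6 fibroblast genes had a positive difference (median 0.32) and all 3 Schwann cell genes a negative one (median -0.49), with none called. All 7 slow-fibre genes had a positive difference in knock-out muscle at both ages, with none called. The log2 gap of Actb between its 5′ and 3′ probe sets, a measure of RNA integrity, was -0.11, 0.05 and 0.02 on the old knock-out arrays, all above the wild-type range of -0.14 to -0.11 at that age (the nearest pair differed only in the third decimal). The same gap for Gapdh overlapped between the genotypes, at -0.04 to 0.02 in old knock-out and -0.04 to -0.01 in old wild-type arrays. The array medians did not overlap, at 6.19 to 6.21 for old knock-out against 6.22 to 6.25 for wild-type of that age. The part of these measures in the import gene differences was not tested.

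Import partners were counted from a list of proteins that work with the translocases. Of 17 measured, 4 were called lower in knock-out muscle over both ages (23.5%) and 1 was called higher (5.88%). Over all genes, 2.51% were called lower and 1.71% higher. In old muscle alone 1 partner was called, higher (5.88%), against 0.473% of all genes called higher. Samm50, the barrel protein that inserts pore proteins such as Tomm40 into the outer membrane, had -0.30 ± 0.05 (adjusted p = 0.0113), and its partner Mtx2 had -0.29 ± 0.05 (adjusted p = 0.0134). Dnajc15, a J-protein at the TIM23 motor, had -0.34 ± 0.06 (adjusted p = 0.0141). Hspa9, the motor chaperone itself, had -0.29 ± 0.06 (adjusted p = 0.0238). Gfer, the sulfhydryl oxidase that recharges the intermembrane space import receptor Chchd4, rose by 0.34 ± 0.06 (adjusted p = 0.0122), and it was also higher in old muscle alone (0.47 ± 0.09, adjusted p = 0.0256), a call lost without old knock-out array 1 (0.47 ± 0.10, adjusted p = 0.0541). The 5 averaged calls of the partners were kept without that array. For Chchd4 the averaged difference was -0.16 ± 0.07 (adjusted p = 0.197).

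Other mitochondrial gene groups were read in the same averaged genotype comparison. The 17 measured genes of the tricarboxylic acid cycle had a median of -0.42 with 14 called lower, and 35 subunits of complex I had -0.29 with 22 called lower. The 76 mitochondrial ribosome proteins had a median of -0.10 with 13 called lower, or 17.1%, beside -0.07 and 13.8% for the import genes. The differences between these lists were not tested.

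Pairs of paralogs were set side by side because 1 member of a pair can carry the call while the other does not. The gap between the log2 signals of a pair was taken on each array, and its change was tested by an exact two-sided permutation test over arrays within age or within genotype (400 arrangements, smallest possible p 0.005), with adjustment over 12 tests chosen after the data were seen. The gap of Timm17a over Timm17b was 0.42 smaller in knock-out muscle (exact p = 0.005, adjusted 0.02). It lay between 1.68 and 2.01 in the 6 wild-type arrays and between 1.23 and 1.65 in the 6 knock-out arrays. The gap of Timm10 over Timm10b was 0.47 lower in knock-out muscle (exact p = 0.005, adjusted 0.02). It lay between 0.20 and 0.39 in wild-type and between -0.50 and 0.02 in knock-out arrays, with old knock-out array 1 the lowest, so neither pair's genotypes overlapped. Without that array the genotype changes were -0.46 and -0.42, each with an exact p of 0.005 (adjusted 0.02). The Timm10 gap was also lower in old than in young muscle, by 0.19 (exact p = 0.005, adjusted 0.02). Without old knock-out array 1 this age change was -0.13 (exact p = 0.005, adjusted 0.02). The gap of Timm8a1 to Timm8b differed by -0.24 between genotypes (exact p = 0.045, adjusted 0.09), and by -0.20 without that array (exact p = 0.08, adjusted 0.12). The log2 signal of Tomm40 minus that of Tomm40l was negative on all 12 arrays. Over both genotypes it was 0.41 nearer to 0 in old than in young muscle (exact p = 0.01, adjusted 0.03). In wild-type arrays it was -1.43 to -1.33 in young and -1.35 to -1.09 in old muscle, which overlap. Knock-out arrays gave -1.47 to -1.13 in young and -1.03 to -0.45 in old muscle, which do not. Whether this age change differed between genotypes was not tested. For Grpel1 over Grpel2 the gap was 0.24 larger in old muscle, again over both genotypes (exact p = 0.02, adjusted 0.048). It was 2.01 to 2.22 in young and 2.18 to 2.22 in old wild-type arrays. Knock-out arrays gave 1.67 to 1.95 in young and 2.19 to 2.29 in old muscle. With old knock-out array 1 left out, these changes with age were 0.34 and 0.23, each with an adjusted exact p of 0.048. The pair of Tomm20 and Tomm20l gives no such reading, since Tomm20l lay below the array median.

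**Figure D4:**
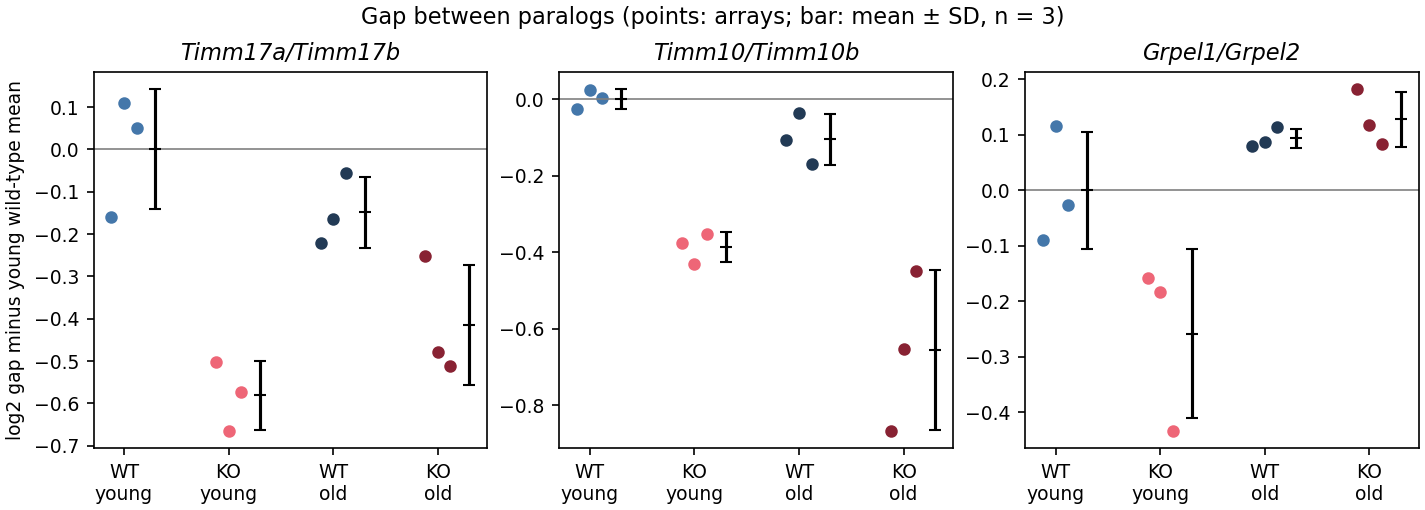
Gap between the log2 signals of Timm17a and Timm17b, of Timm10 and Timm10b, and of Grpel1 and Grpel2 on each array, minus the young wild-type mean of that gap (vertical axes), by group (WT, wild-type; KO, knock-out), with the mean and SD of 3 arrays. For the Timm17 and Timm10 pairs all knock-out points lie below all wild-type points of both ages, and for the Grpel pair the young knock-out points are the lowest.

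With age, Timm44 fell in both genotypes and Grpel1 rose in knock-out muscle. In wild-type muscle 1 of the 29 members (3.45%) was called, against 1.97% of all genes lower and 1.65% higher (3.62% together). This was Timm44, at -0.43 ± 0.09 (-25.6%, adjusted p = 0.021), with all 3 old wild-type arrays below all 3 young ones. Without old knock-out array 1 the wild-type count was 3, with Pmpcb and Timm21 added. The 4 groups share 1 estimate of the spread, so an array outside a comparison can enter its test. The cause of this change was not tested. The count over all genes also moved with single arrays left out, as given in the closing section. In knock-out muscle 2 were called, 1 lower and 1 higher (3.45% each), against 5.41% of all genes lower and 4.85% higher (10.3% together). Counting both directions, members were thus called no more often than all genes in either genotype. In knock-out muscle Timm44 fell by 0.36 ± 0.09 on the log2 scale (adjusted p = 0.0236). The wild-type age call of Timm44 was lost without young wild-type array 2 or 3, or without any of the 3 old wild-type arrays (adjusted p up to 0.1). The knock-out age call was lost without young knock-out array 2 or 3 or old knock-out array 1 (-0.32 ± 0.09 without the last, adjusted p = 0.0607). On its other 2 probe sets the age differences of Timm44 were -0.38 and -0.20 in wild-type and -0.32 and -0.05 in knock-out muscle, none of them called.

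Grpel1 releases nucleotide from Hspa9 so that the motor can run another cycle. The Grpel1 log2 signal was 11.11, 11.02 and 10.90 in young knock-out and 11.72, 11.40 and 11.36 in old knock-out muscle. In wild-type it was 11.19, 11.26 and 11.20 in young and 11.36, 11.32 and 11.34 in old arrays. Old arrays lay above young arrays in both genotypes without overlap, and the widest spread was among the old knock-out arrays. The difference was 0.48 ± 0.10 in knock-out muscle (39.8% higher, adjusted p = 0.0113) and 0.12 ± 0.10 in wild-type muscle (adjusted p = 0.609). The difference between these 0.36 ± 0.14 did not pass the test (adjusted p = 0.871). Without old knock-out array 1, the highest, the knock-out difference was 0.37 ± 0.08 (29.2% higher, adjusted p = 0.0222). The knock-out call was lost without young knock-out array 3 (adjusted p = 0.0549).

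Other members had age differences without a call. Pmpcb was 0.30 ± 0.09 higher in old wild-type muscle (adjusted p = 0.0816), Timm21 had -0.32 ± 0.11 in wild-type arrays and -0.29 ± 0.11 in knock-out arrays, and Timm10b had 0.26 ± 0.09 in knock-out and -0.01 ± 0.09 in wild-type muscle. In wild-type muscle 6 members lay lower in old arrays without overlap, against 13.5% of all genes, and 4 lay higher, against 12.8%. In knock-out muscle 4 lay lower, against 14.9%, and 3 higher, against 13.8%. Leaving out old knock-out array 1 gave 4, against 19.8%, and 6, against 19.6%. The member medians were -0.03 for wild-type and -0.05 for knock-out muscle. Among the 17 partners, limma called 1 lower with age in wild-type muscle (5.88%) and none higher, against 1.97% of all genes lower and 1.65% higher. In knock-out muscle 1 was called lower and 1 higher (5.88% each), against 5.41% and 4.85% of all genes. The matrix cochaperonin Hspe1 fell in wild-type muscle (-0.39 ± 0.08, adjusted p = 0.027). Chchd4 fell in knock-out muscle (adjusted p = 0.0433) and Gfer rose there (0.37 ± 0.09, adjusted p = 0.0195). Without old knock-out array 1 the Chchd4 call was lost (-0.27 ± 0.10, adjusted p = 0.122) and the Gfer call was kept (adjusted p = 0.0406). All comparisons of age share their arrays with the comparisons of genotype, so the values are given side by side only.

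**Figure D5:**
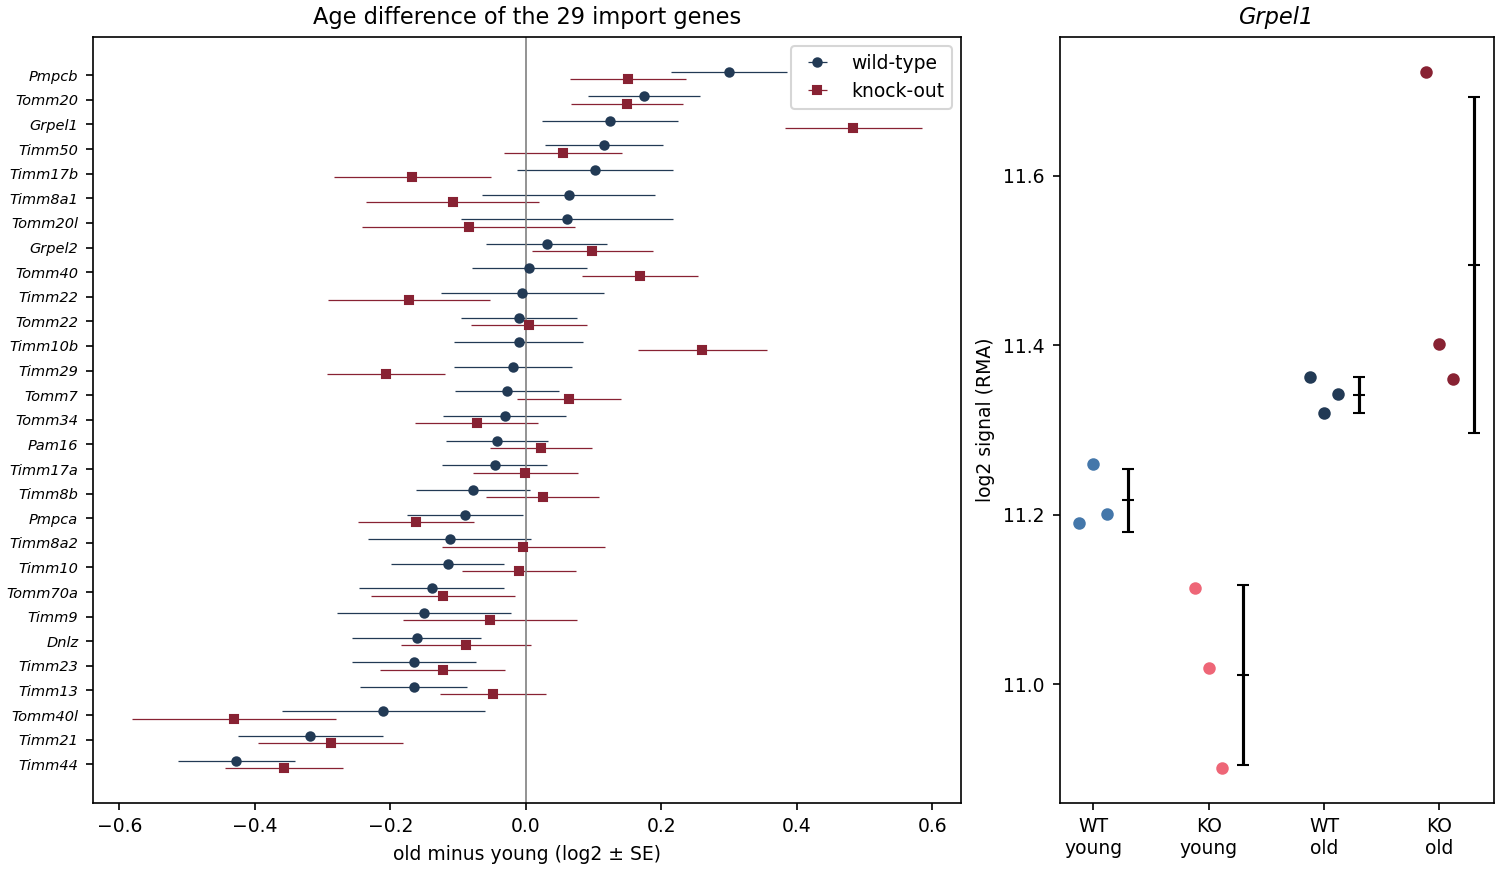
Left, log2 difference between old and young muscle (horizontal axis, with its standard error) for the 29 import genes in wild-type (circles) and knock-out (squares), ordered by the wild-type value. Right, log2 signal of Grpel1 in each array by group (WT, wild-type; KO, knock-out) with the mean and SD of 3 arrays, on an axis that does not start at 0; the young knock-out arrays are the lowest and the old knock-out arrays spread from 11.36 to 11.72.

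RNA quality measures and tissue markers moved with age as well. The 18S signal was 13.23 to 14.17 in young and 11.70 to 12.84 in old arrays, and the Actb gap was -0.33 to -0.16 in young and -0.14 to 0.05 in old arrays. All 6 fibroblast genes had a negative difference with age in both genotypes, with 1 called for wild-type and 3 for knock-out. Of 6 endothelial genes, 5 had a negative difference in each genotype, with 2 called lower in each. All 7 adipocyte genes had a negative difference with age in wild-type (median -0.55) and a positive one in knock-out muscle (median 0.88), with none called. Slow-fibre genes had a positive difference in 6 of 7 in wild-type and 7 of 7 in knock-out muscle, with none called. The part of these in the age differences of Timm44 and Grpel1 was not tested.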

How the data were processed

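Per the submitters' processing notes, the authors normalized the Affymetrix signals with RMA in the affy package. The deposited values are log2 intensities for 45101 probe sets on 12 arrays. A platform annotation gave 1 gene for 34958 probe sets, several for 932 and none for 9211. Of each gene's probe sets with 1 gene, that with the highest mean was kept (18194 genes). Tomm5 and Tomm6 appear only on probe sets that name several genes and are not members.

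Group means of the 4 groups were fitted with limma 3.58.1 (R 4.3.3, lmFit and eBayes, no covariates, 8 residual degrees of freedom). P-values were Benjamini-Hochberg adjusted over all genes, with a threshold of 0.05. Errors are standard errors of the fit unless an SD is named. The number of arrays limits the precision. Replicate numbers follow the order of deposition and pair no samples. Per-array values are given for members with a call and, in each role, for those with the smallest p in the averaged genotype comparison and the highest mean. Partners were named where called. Genes, lists and roles were chosen with earlier results of these data known. Alternatives were another probe set rule, a filter on dim genes, rescaling, other variance models, array weights and left-out arrays. The paralog tests, and the counts of non-overlapping members and paralog tests without old knock-out array 1, were added after the data were seen.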

Additional observations from a re-analysis of the deposited data

How the results depend on the processing

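The 4 calls of the averaged genotype comparison (Timm44, Timm17a, Timm10, Pmpcb) kept their direction under all 19 alternatives run, and the count became 7 with array weights and 1 to 5 with single arrays left out. In young muscle the count went from 0 to 4 with array weights (Timm44, Timm10 and Timm17a lower, Timm17b higher) and to 1, Timm44, with old knock-out array 1 and young wild-type array 1 both left out. In old muscle it went from 0 to 1, Pmpcb, with brighter genes only, with quantile normalization again and with trended and robust variances, and to between 0 and 2 with single arrays left out. The age count in wild-type muscle went from 1 to 3 with array weights, to 2 with brighter genes only and with trended and robust variances, and to between 0 and 3 with single arrays left out. The age count in knock-out muscle went from 2 to 1 with probe sets averaged per gene, to 0 with only the groups compared, and to between 0 and 3 with single arrays left out. The interaction stayed at 0 members in all 19 alternatives. The causes were not tested. Over all genes, array weights moved the averaged genotype count from 768 to 1936, the young count from 35 to 1019 and the wild-type age count from 659 to 2451. With only the groups compared, the old genotype count went from 241 to 0 and the knock-out age count from 1868 to 617. Trended and robust variances gave 104 in young and 389 in old muscle, and brighter genes only gave 65 and 388, with 1006 in the average, out of 11354. Leaving out both arrays gave 216 in young muscle and 1314 in the average, and quantile normalization again gave 56 in young muscle. Single arrays left out gave 309 to 1007 genes in the average, 1 to 173 in young and 28 to 644 in old muscle, 208 to 1093 for wild-type age and 833 to 1998 for knock-out age. The interaction count was 37 genes without old knock-out array 3, 1 without old wild-type array 2 and 0 otherwise. No paired analysis was possible because the labels carry no replicate numbers.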
